A study of Mus musculus with 4 samples.

Results

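The genes described here are 10 mouse genes of the NRF2-type antioxidant response, read in gastrocnemius, a muscle of the calf in which fast fibres prevail. They are Nfe2l2, Nqo1, Hmox1, Gclc, Gclm, Gsr, Txnrd1, Srxn1, Sod2 and Gpx3, taken from a list of NRF2 targets and antioxidant enzymes. The list uses no measured value in its rule, but it was drawn up with earlier results of these data known. They are 10 of 22180 genes that the arrays read through a transcript cluster (a set of probes summed into a single value) with 1 gene symbol. Each of the 10 was read by exactly 1 such cluster, and all 10 lay above the level filter that 13258 genes passed.

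Affymetrix arrays were run on 4 groups, with 1 array per group. The groups were wild-type mice given sodium citrate (WT vehicle), wild-type mice given streptozotocin (WT STZ), and mice with a skeletal-muscle-specific knockout of the transcription factor KLF15, given citrate (KO vehicle) or streptozotocin (KO STZ). Streptozotocin, a toxin that destroys insulin-producing beta cells, was injected into the peritoneum on each of 5 days at 50 mg/kg. It was dissolved in 50 mM sodium citrate of pH 4.5, and the muscle was collected 3 weeks later. All 4 groups thus received citrate. For the age, sex and strain of the mice, the driver of the muscle deletion, and how many animals an array stands for, nothing is given in the sources used here. With 1 array per group no test could be run and no error can be given, so higher and lower below compare single arrays. Where values are given per genotype, vehicle comes first and STZ second.

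NRF2, the protein made from Nfe2l2, is a transcription factor that the adaptor KEAP1 holds in the cytoplasm and sends to the proteasome. Oxidants and electrophiles modify KEAP1, NRF2 then enters the nucleus and, paired with a small MAF protein, binds antioxidant response elements near its target genes. The targets make glutathione, reduce thioredoxin, detoxify quinones and break down heme. Much of this control acts on the NRF2 protein, so the Nfe2l2 transcript is not a measure of NRF2 activity.

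Because this control runs through a short DNA element, the 250 bases before the start of transcription are shown for 4 of the genes. They are Nqo1, which differed most between arrays, Srxn1, the only gene of the 10 that was higher in KO under both treatments in the values as deposited, Gclm, an enzyme subunit gene, and Nfe2l2 itself. The sequences are from RefSeq (GRCm38.p6), whose promoter table held 7 of the 10 genes, and run 5′ to 3′ along the gene's own strand. Capitals mark a match, on either strand, to the core of the antioxidant response element, searched as TGACNNNGC and as TGAGNNNGC. Nqo1 lies at chr8:107403206-107403455 on the minus strand, Srxn1 at chr2:152105274-152105523 on the plus strand, Gclm at chr3:122245307-122245556 on the plus strand and Nfe2l2 at chr2:75704664-75704913 on the minus strand.
Nqo1: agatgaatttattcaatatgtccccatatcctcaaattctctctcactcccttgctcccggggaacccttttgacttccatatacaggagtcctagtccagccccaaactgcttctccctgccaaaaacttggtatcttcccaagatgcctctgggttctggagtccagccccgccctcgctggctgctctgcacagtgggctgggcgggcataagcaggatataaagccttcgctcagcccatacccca
Srxn1: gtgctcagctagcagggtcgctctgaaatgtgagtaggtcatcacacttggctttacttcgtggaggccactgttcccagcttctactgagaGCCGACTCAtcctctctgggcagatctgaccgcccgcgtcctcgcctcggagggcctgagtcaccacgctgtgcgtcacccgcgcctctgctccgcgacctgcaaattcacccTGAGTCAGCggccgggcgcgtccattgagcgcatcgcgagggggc
Gclm: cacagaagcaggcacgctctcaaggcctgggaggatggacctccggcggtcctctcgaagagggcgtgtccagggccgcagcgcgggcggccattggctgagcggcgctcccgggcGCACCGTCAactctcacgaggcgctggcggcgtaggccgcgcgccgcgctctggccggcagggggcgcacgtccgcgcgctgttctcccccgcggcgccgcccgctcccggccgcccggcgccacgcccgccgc
Nfe2l2: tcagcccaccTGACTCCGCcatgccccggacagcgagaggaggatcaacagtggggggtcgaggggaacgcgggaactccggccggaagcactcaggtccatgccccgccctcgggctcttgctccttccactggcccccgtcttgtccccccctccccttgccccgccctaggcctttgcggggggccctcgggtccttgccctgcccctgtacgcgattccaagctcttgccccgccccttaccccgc

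Of the 7 genes with a promoter sequence, 4 held a match in at least 1 annotated window, namely Nfe2l2, Gclm, Txnrd1 and Srxn1. The 7 genes had 9 windows, and the shares that follow are per window and not per gene. Over all 32851 promoter windows of this length, 23.0% held either form, 10.2% held TGACNNNGC and 14.4% held TGAGNNNGC, so a match by itself is common. Srxn1 held 2 matches. The nearer, TGAGTCAGC, begins 45 bases before the start on the gene's own strand and overlaps TGACTCA, the site of AP-1 factors, read on the opposite strand. A second TGACTCA begins 102 bases before the start of Srxn1, and 4.46% of all windows hold that site. The Gclm match, TGACGGTGC, lies on the opposite strand 134 to 126 bases before the start. The Nfe2l2 match, TGACTCCGC, begins 240 bases before it on the gene's own strand. Txnrd1 held TGACAAAGC in 1 of its 3 annotated windows. Nqo1, Sod2 and Gpx3 held no match, which says only that these letters are not in these windows. The matches are a description of sequence and not of binding.

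The labels and the tissue were checked first. Klf15 stood at an intensity of 50.5 and 72.1 in WT and at 19.8 and 16.04 in KO, lower on both KO arrays as labelled. Whether this cluster reads the deleted exons is not given. All 12 markers of muscle fibres, such as Acta1 and Ckm, were above the level filter, and 0 of 8 neutrophil markers were. Xist was at most 3.61 and the Y-linked gene Eif2s3y at least 87.1 on every array. The arrays were close at their medians, from 5.73 to 5.96, but their percentile 95 was 206.8 on the WT STZ array and 179.4 on the KO STZ array. Among the 3315 genes with a mean intensity above 66.5, which include 7 of the 10, 76.2% lay below 0 for KO against WT under STZ, with a median log2 difference of -0.15.

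Nfe2l2, the regulator, stood at 133.7 and 143.4 in WT and at 149.1 and 108.5 in KO. The KO STZ array was thus the low one, and the highest of the other 3, KO vehicle, was 11.5% above WT vehicle. All differences below are of log2(intensity + 3.69). STZ against vehicle stood at 0.098 in WT and -0.45 in KO, the lowest of the 10 genes in KO. In bulk muscle, fewer cells of a type and less RNA per cell cannot be told apart, here or below.

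Nqo1 encodes a quinone reductase that transfers a pair of electrons to quinones and is the classical NRF2 target. It stood at 92.1 and 147.8 in WT and at 89.1 and 87.8 in KO. The WT STZ array alone was high, and the other 3 arrays lay close together. The intensity was 60.4% above vehicle in WT and differed from it by -1.48% in KO. On the log2 scale this is 0.66 in WT, the 100th highest of 13258 genes, and -0.021 in KO, a value that turned positive under quantile normalization and loess. KO against WT stood at -0.045 under vehicle and at -0.73 under STZ.

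Hmox1 encodes the inducible heme oxygenase, which opens the heme ring and releases iron, carbon monoxide and biliverdin. It stood at 12.5 and 17.9 in WT and at 16.2 and 11.4 in KO. WT STZ and KO vehicle were the higher pair of arrays, so the order of STZ and vehicle was opposite in the genotypes. The log2 difference of STZ against vehicle was 0.41 in WT and -0.40 in KO. With an offset of 16 in place of 3.69 these differences were 0.25 and -0.23.

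Gclc, the catalytic subunit of the enzyme that joins glutamate and cysteine, stood at 39.5 and 43.8 in WT and at 43.8 and 42.5 in KO. It had the narrowest range of the 10 genes, 0.14 on the log2 scale. Gclm, the modifier subunit of the same enzyme, stood at 82.1 and 94.8 in WT and at 82.6 and 66.4 in KO. Its vehicle arrays were nearly equal, with WT STZ above them and KO STZ below. STZ against vehicle stood at 0.20 in WT and -0.30 in KO for Gclm, against 0.14 and -0.039 for Gclc. Gsr, which regenerates reduced glutathione with NADPH, stood at 71.1 and 79.9 in WT and at 81.4 and 76.4 in KO. Gsr and Gclc were lowest on the WT vehicle array and had the closest profiles of any pair among the 10, at a Euclidean distance of 0.040 between centred log2 values over 4 arrays. The most distant pair was Nqo1 and Srxn1, at 0.77.

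In the thioredoxin branch, Txnrd1, the cytosolic selenoenzyme that reduces thioredoxin, stood at 176.4 and 175.6 in WT and at 180.3 and 154.2 in KO. KO STZ was 14.5% below KO vehicle, and the other 3 arrays were nearly level. For Txnrd1, KO against WT under STZ stood at -0.18, but at -0.011 under quantile normalization and -0.032 under loess. STZ against vehicle in KO stood at -0.22, and at -0.15 under either setting. Srxn1, which repairs overoxidized peroxiredoxins, stood at 58.6 and 62.6 in WT and at 75.6 and 72.2 in KO. Both KO arrays lay above both WT arrays. KO against WT stood at 0.35 under vehicle, the 603rd highest of 13258 genes, and at 0.20 under STZ. Quantile normalization put the latter at 0.34 and loess put it at 0.30.

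Of the enzymes that remove superoxide and peroxide, Sod2, the manganese superoxide dismutase of mitochondria, stood at 1252 and 1328 in WT and at 1273 and 1142 in KO. The KO STZ array was the low one, at 10.3% below KO vehicle. For Sod2, KO against WT under STZ stood at -0.22, but at -0.094 under quantile normalization and -0.027 under loess. STZ against vehicle in KO stood at -0.16, and at -0.094 and -0.095 under these settings. Gpx3, a secreted selenium-containing glutathione peroxidase, stood at 28.3 and 37.1 in WT and at 25.8 and 22.2 in KO. As for Nqo1, WT STZ was the high array. STZ against vehicle stood at 0.35 in WT and -0.19 in KO, and KO against WT at -0.12 under vehicle and -0.65 under STZ.

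**Figure D1:**
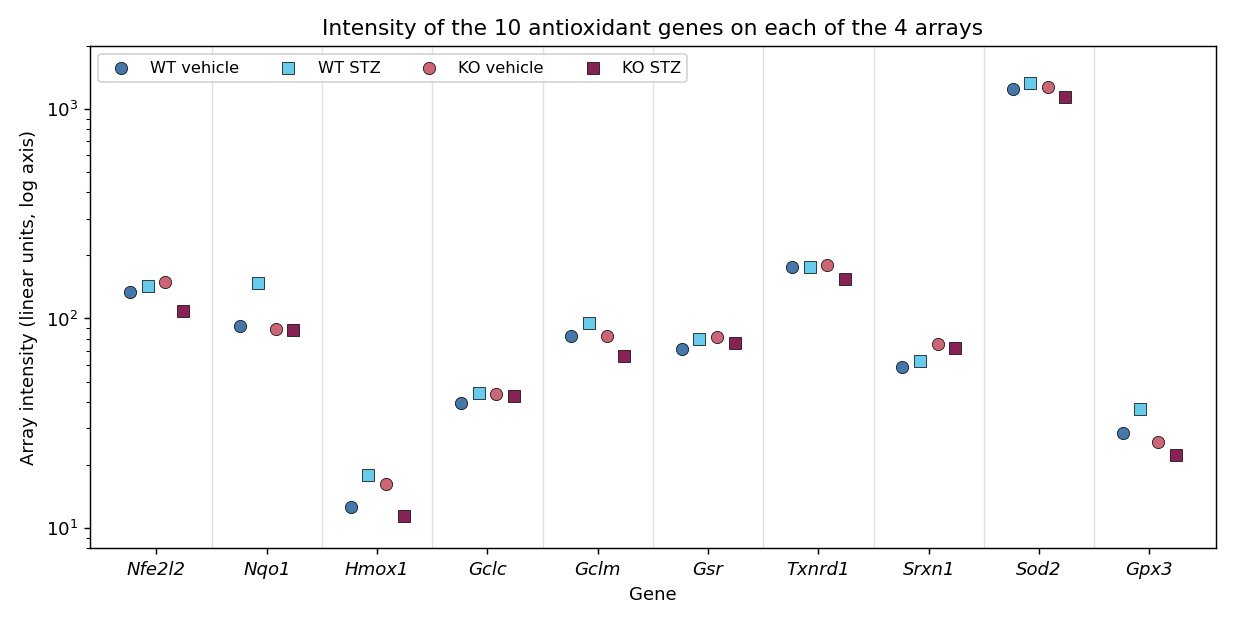
Array intensity (linear units on a log axis) of the 10 genes, 1 point per array, with vehicle as circles and STZ as squares, WT in blue and KO in red. Nqo1 and Gpx3 are high on the WT STZ array (147.8 and 37.1), Srxn1 is higher on both KO arrays (75.6 and 72.2), and 7 of the 10 genes are lowest on the KO STZ array; heights of different genes are not to be compared, because each cluster has its own probes.

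Across the 10 genes, STZ stood with higher values in WT and with lower values in KO. In WT, 9 of 10 were above 0, against 51.5% of 13258 genes. The median was 0.15, against 0.0075, or 0.037 for genes with a mean intensity above 66.5. Txnrd1, at -0.0064, was the exception, and it turned positive with the arrays centred on their medians. Of the 10, 1 was at least 1.5-fold higher (Nqo1) and 0 were 1.5-fold lower, where 1.27% and 0.445% of all genes were so. These background shares were 0.920% and 0.520% under quantile normalization.

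In KO, 10 of 10 genes were below 0 for STZ against vehicle, against 57.0% of all genes, with a median of -0.17 against -0.032. They ran from -0.45 for Nfe2l2 to -0.021 for Nqo1. Among genes with a mean intensity above 66.5, which include 7 of the 10, 68.4% were below 0, with a median of -0.074. None of the 10 reached 1.5-fold, which 0.445% of all genes did upwards and 0.656% downwards. The count below 0 was 7 of 10 under quantile normalization and 8 of 10 under loess, against 51.9% and 51.4% of all genes. Nqo1 and Gclc turned positive under both and Srxn1 under the former. No array enters both of these comparisons, while each has an array in common with either comparison of genotypes. In all, 9 of 10 genes were higher with STZ in WT and lower with STZ in KO, as were 28.6% of all genes. Under quantile normalization the count was 6 of 10, against 23.1% of all genes.

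**Figure D2:**
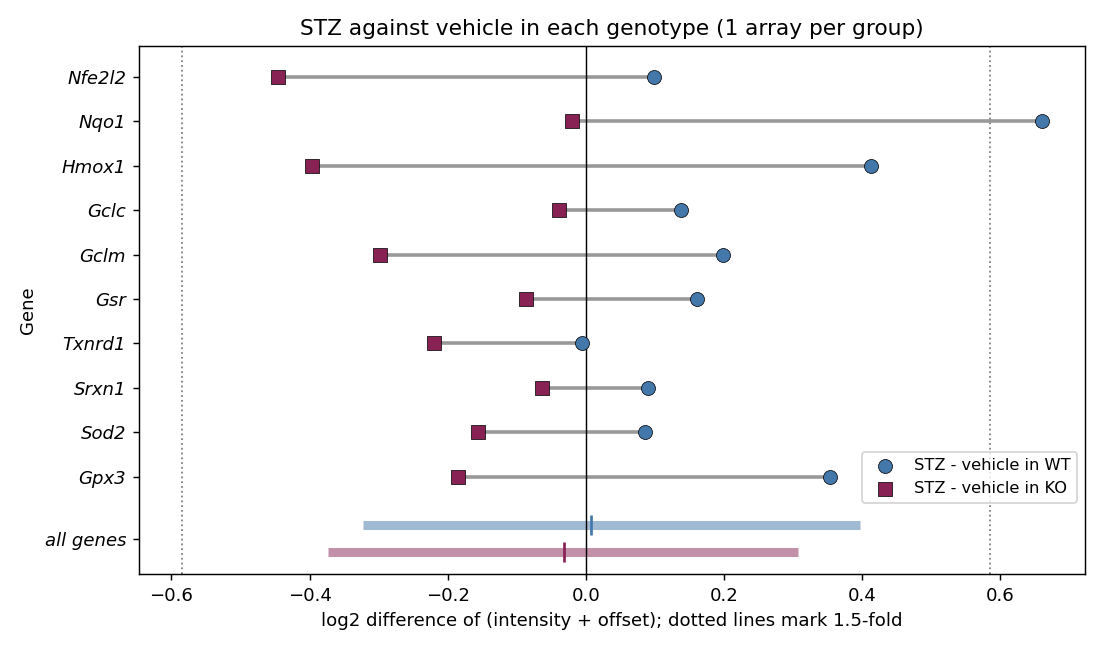
Difference of log2(intensity + 3.69) between STZ and vehicle for each of the 10 genes in WT (blue circles) and in KO (red squares), joined by a grey line, with percentiles 5 to 95 and the median of 13258 genes as bars and ticks below and 1.5-fold as dotted lines. The KO square lies left of the WT circle for every gene, and Nqo1 in WT, at 0.66, is the value past 1.5-fold.

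The genotypes were compared under each treatment, with 1 array on each side. Under vehicle the 10 genes were near WT, and 8 of 10 lay above 0, against 49.1% of all genes. Their median was 0.084, against -0.0039, from -0.12 for Gpx3 to 0.35 for Srxn1. None reached 1.5-fold, which 0.581% of all genes did upwards and 0.777% downwards. Hmox1 stood at 0.29, Gsr at 0.19, Nfe2l2 at 0.15 and Gclc at 0.14.

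Under STZ, 9 of 10 genes were lower in KO than in WT, against 58.1% of all genes, with a median of -0.30 against -0.048. Of genes with a mean intensity above 66.5, 76.2% were lower, with a median of -0.15. Of the 10, 2 were at least 1.5-fold lower, Nqo1 and Gpx3, and 0 were 1.5-fold higher. Of all genes, 2.81% and 0.845% were so. Nqo1 was the 174th lowest of 13258 genes and Gpx3 the 260th lowest. Hmox1 stood at -0.52, Gclm at -0.49 and Nfe2l2 at -0.39. Gclm was at -0.34 and Nfe2l2 at -0.24 under quantile normalization, and at -0.37 and -0.25 under loess. Srxn1, at 0.20, was the exception. Quantile normalization brought the median to -0.17 and loess to -0.14, with 7 of 10 below 0 under both. The shares of all genes below 0 were then 48.3% and 51.0%. Gclc and Gsr were the genes that turned positive. Nqo1, at -0.58, missed 1.5-fold under quantile normalization, and the background shares were then 1.83% lower and 1.17% higher.

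**Figure D3:**
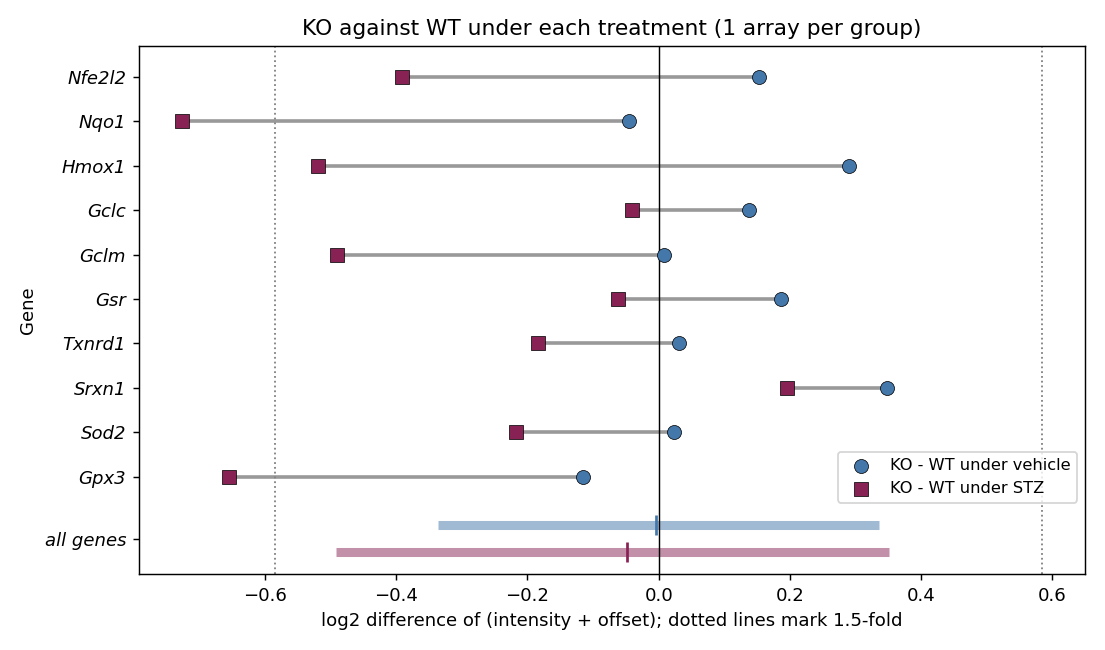
Difference of log2(intensity + 3.69) between KO and WT under vehicle (blue circles) and under STZ (red squares) for each of the 10 genes, with percentiles 5 to 95 and the median of 13258 genes below and 1.5-fold as dotted lines. Nqo1 (-0.73) and Gpx3 (-0.65) under STZ lie past 1.5-fold, and Srxn1 is above 0 under both treatments (0.35 and 0.20).

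Subtracting the WT effect of STZ from the KO effect uses all 4 arrays and so repeats the values above in another form. The result was below 0 for 10 of 10 genes, against 57.1% of all genes and 70.9% of those with a mean intensity above 66.5. Its median was -0.37, against -0.048 over all genes. It stood at -0.81 for Hmox1 and -0.68 for Nqo1, the 2 genes past a 1.5-fold difference, where 3.91% of all genes were past it downwards and 1.76% upwards. Under quantile normalization these shares were 2.78% and 2.18%, and Nqo1, at -0.54, missed the threshold. Nfe2l2 stood at -0.54, Gpx3 at -0.54 and Gclm at -0.50. Gsr, Sod2, Txnrd1, Gclc and Srxn1 lay between -0.25 and -0.15. All 10 stayed below 0 under quantile normalization, under loess and with centred medians, where 48.9%, 50.9% and 61.6% of all genes were.

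On the level of arrays, 7 of 10 genes were lowest on the KO STZ array, as were 33.5% of all genes and 48.1% of those with a mean intensity above 66.5. The other 3 (Gclc, Srxn1 and Gsr) were lowest on the WT vehicle array, as were 20.6% of all genes. On the WT STZ array, 6 of 10 were highest, as were 32.2% of all genes and 45.0% of the brighter ones. The other 4 (Nfe2l2, Txnrd1, Srxn1 and Gsr) were highest in KO vehicle, as were 25.1% of all genes. Removing the trend with brightness by loess left 5 of 10 lowest on KO STZ and 4 of 10 highest on WT STZ, where 26.1% and 28.1% of all genes were so.

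**Figure D4:**
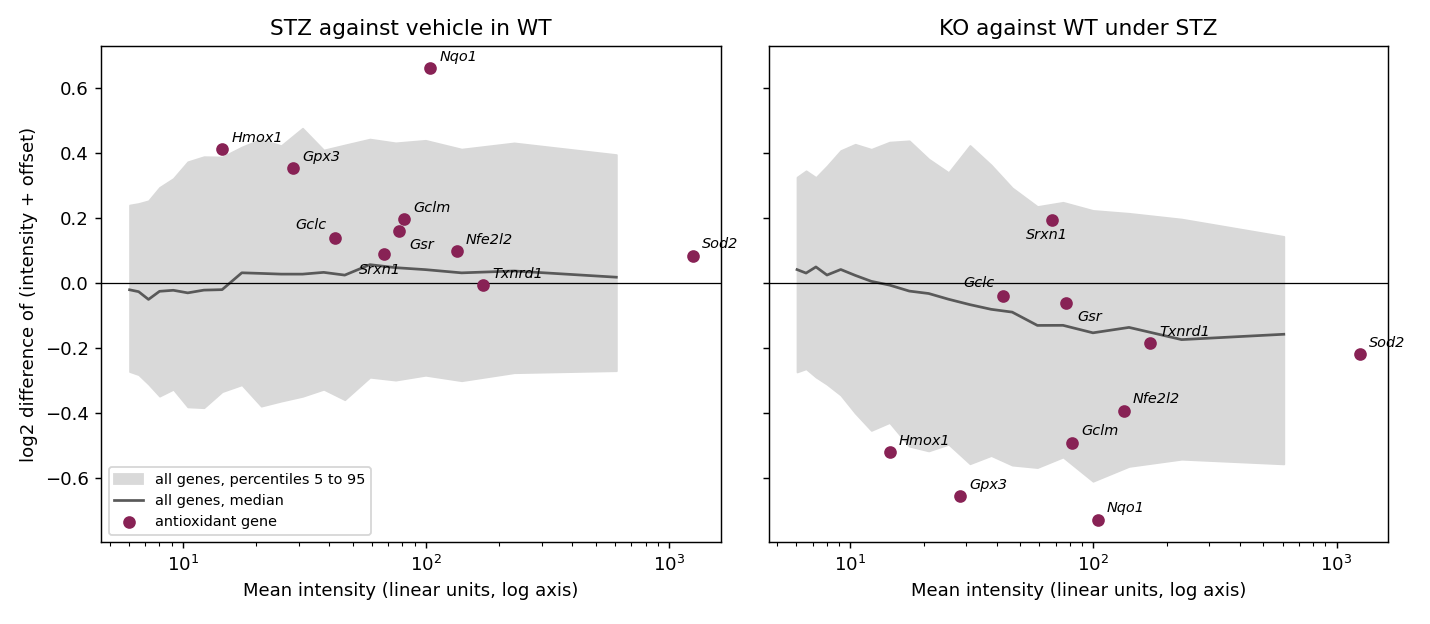
Difference of log2(intensity + 3.69) against mean intensity (log axis) for STZ against vehicle in WT (left) and KO against WT under STZ (right), with the 10 genes as red points, the median of all genes in 20 bins of level as a line and percentiles 5 to 95 in grey. On the right the median of all genes sinks with brightness, to -0.15 over genes above an intensity of 66.5, and Nqo1 (-0.73), Gpx3 (-0.65) and Hmox1 (-0.52) lie below the grey band.

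Around the 10 genes, 8 further lists of the same pathways held 140 genes, of which 119 lay above the level filter. In WT, STZ stood with 84 of 119 above 0, where 51.5% of all genes were, and with a median of 0.091 against 0.0075. Of the 119, 3 were at least 1.5-fold higher and 0 lower, against 1.27% and 0.445% of all genes. In KO, 73 of 119 were below 0, where 57.0% of all genes were, with a median of -0.052 against -0.032. There 1 gene was past 1.5-fold each way, against 0.445% of all genes upwards and 0.656% downwards. KO against WT under vehicle had 0 genes 1.5-fold higher and 4 lower, against 0.581% and 0.777% of all genes, with a median of -0.0094 against -0.0039. Under STZ it had 0 higher and 8 lower, against 0.845% and 2.81% of all genes, with a median of -0.13 against -0.048. For the difference between STZ effects, 1 was higher and 4 were lower, against 1.76% and 3.91% of all genes, with a median of -0.13 against -0.048. Under quantile normalization the medians for STZ in WT and for KO under STZ shrank to 0.040 and -0.012, and loess turned the median for STZ in KO to 0.00073.

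Of 17 NRF2 regulators, 0 were past 1.5-fold in any pairwise comparison, and their medians ran from -0.080 to 0.041. Between 0.445% and 2.81% of all genes were, depending on comparison and direction, so a count of 0 is no particular trait. Keap1, the adaptor that holds NRF2, stood at 111.7 and 105.8 in WT and at 105.4 and 117.4 in KO. It was highest on the array where Nfe2l2 was lowest. Bach1, a repressor that competes with NRF2 and that heme inactivates, lay between 43.4 and 49.2.

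Of 26 genes of glutathione synthesis and use, 0 were past 1.5-fold for STZ in WT and 1 was higher for STZ in KO. In KO, 2 were at least 1.5-fold lower than in WT under each treatment. The shares of all genes were 0.445% for the former, and 0.777% under vehicle and 2.81% under STZ for the latter. The 2 lower in KO were Gstk1, a mitochondrial and peroxisomal glutathione transferase, and Gstm2, a cytosolic transferase. Gstk1 stood at -1.38 under vehicle and -1.71 under STZ. Gstm2 stood at 22.4 and 35.1 in WT and at 12.5 and 21.8 in KO. It was higher with STZ in both genotypes, by 0.58 in WT, just short of 1.5-fold, and by 0.65 in KO, and its close relatives in the Gstm family can share probes. Under quantile normalization its value in KO against WT under STZ, -0.61, became -0.54, under 1.5-fold. Gpx1, the main cytosolic peroxidase, lay between 189.1 and 222.3, and Gpx4, which reduces lipid peroxides, between 129.3 and 147.8. In the thioredoxin and peroxiredoxin list 0 of 11 genes passed 1.5-fold, where 0.445% to 2.81% of all genes did by pairwise comparison and direction. Txn1, thioredoxin itself, lay between 79.2 and 94.1. Prdx1 and G6pdx had no cluster with a single symbol here.

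Cat, the gene of catalase, which breaks down hydrogen peroxide, had its arrays in the same order as Nqo1 and Gpx3. It stood at 701.4 and 893.1 in WT and at 680.8 and 556.0 in KO. KO against WT stood at -0.68 under STZ, or -0.45 under quantile normalization, and at -0.043 under vehicle, a value that quantile normalization and loess turned positive. Sod1, the cytosolic dismutase, stood between 662.0 and 775.3. Mt2, a metallothionein, was 0.76 higher with STZ in WT and 0.38 higher in KO. Nnt, the mitochondrial transhydrogenase that makes NADPH, stood at -0.72 in KO vehicle against WT vehicle and -0.22 under STZ. Of the 12 genes of this list, 1 was 1.5-fold higher for STZ in WT and 1 was lower in KO under each treatment. The shares of all genes were 1.27% for the first, and 0.777% under vehicle and 2.81% under STZ for the second.

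Of 10 genes of NADPH supply, 2 were at least 1.5-fold lower in KO than in WT under STZ, a size that 2.81% of all genes reached. Idh2, the mitochondrial NADP-dependent isocitrate dehydrogenase, stood at 710.0 and 1050 in WT and at 742.6 and 615.8 in KO, high on the WT STZ array. Nadk2, the mitochondrial NAD kinase, was the other, at -0.72. Both missed 1.5-fold under quantile normalization (Idh2 at -0.57 and Nadk2 at -0.58).

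Among 9 genes of heme and iron handling, Slc40a1, the iron exporter ferroportin and like Hmox1 a gene with high levels in macrophages, was the one past 1.5-fold. It stood at 62.9 and 105.1 in WT and at 82.3 and 53.2 in KO, in the same order of arrays as Hmox1. STZ against vehicle stood at 0.71 in WT and -0.60 in KO, the latter -0.55, under 1.5-fold, with quantile normalization. Of all genes, 1.27% were 1.5-fold higher for STZ in WT and 0.656% were 1.5-fold lower for STZ in KO. Of 17 genes of quinone, aldehyde and drug metabolism, Ephx1, a microsomal epoxide hydrolase, stood at 0.60 for STZ in WT (0.52 under quantile normalization). Aldh2, the mitochondrial aldehyde dehydrogenase, stood at -0.82 in KO under vehicle and -1.13 under STZ. Akr1b10, an aldo-keto reductase, stood at -0.68 under STZ (-0.54 under quantile normalization). Osgin1, an NRF2-responsive gene named here after its values were seen, went the other way from the 10 genes. It stood at 39.0 and 25.3 in WT and at 26.7 and 36.1 in KO, lower with STZ in WT (-0.56) and higher with STZ in KO (0.39). Its difference between STZ effects, 0.95, was the single one of the 119 past 1.5-fold upwards, as were 1.76% of all genes. The selenoprotein list covers proteins of the class to which Txnrd1 and Gpx3 belong and the machinery that makes them. In it 0 of 17 genes passed 1.5-fold in any pairwise comparison, where 0.445% to 2.81% of all genes did by comparison and direction.

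**Figure D5:**
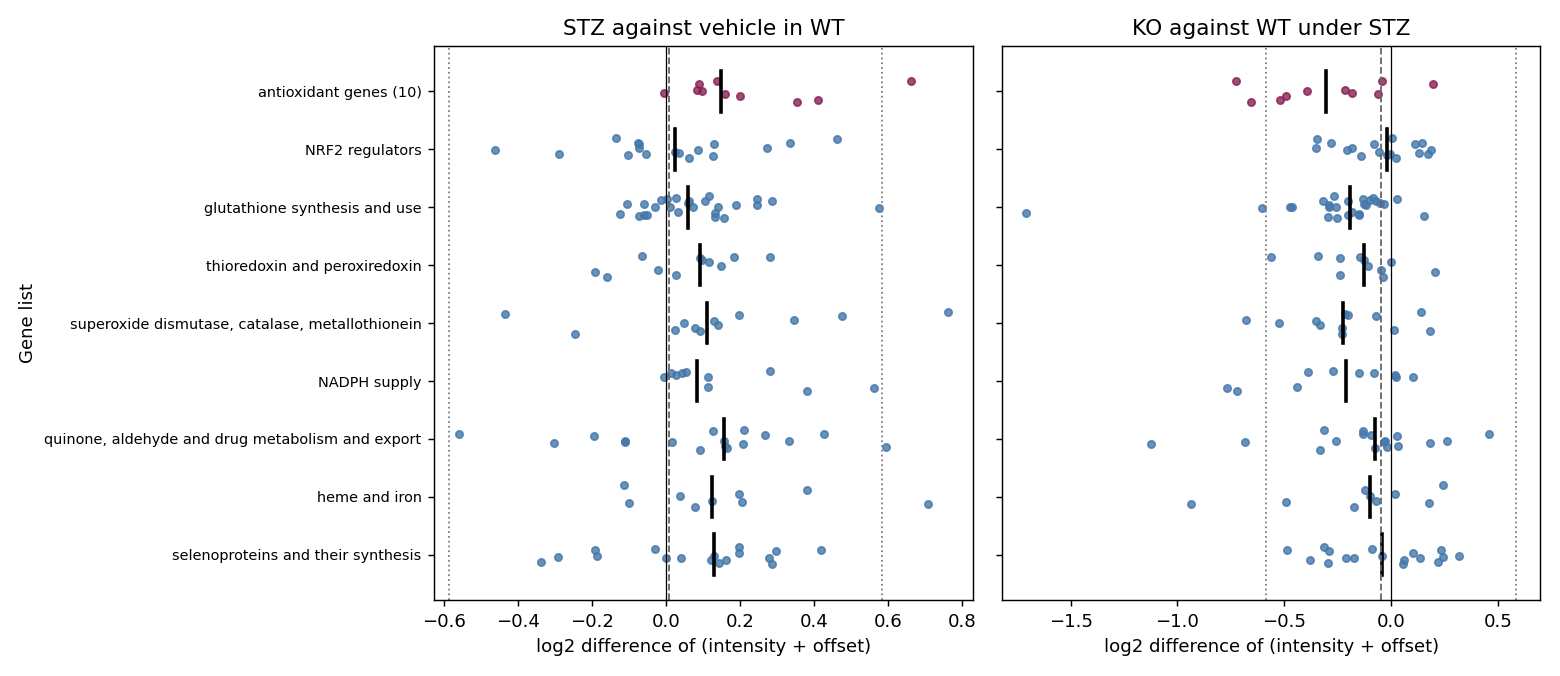
Difference of log2(intensity + 3.69) for STZ against vehicle in WT (left) and KO against WT under STZ (right), with 1 point per gene above the level filter, the list median as a black bar, the median of 13258 genes as a dashed line and 1.5-fold as dotted lines. The 10 antioxidant genes (red, medians 0.15 and -0.30) stand beside 8 further lists (blue), in which Gstk1, at -1.71, is the farthest point.

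Gpx3 and Hmox1 are also made by cells other than muscle fibres, and markers of such cells were read beside them. For adipocytes, 8 of 10 markers were measured and 7 lay above the filter, with only Lep, the leptin gene, below it. Summed over the 8, the intensity stood at 1809 and 2133 in WT and at 1680 and 1354 in KO, a sum made mostly by Fabp4 and Lpl. Of the 7, 5 (Adipoq, Plin1, Retn, Cidec and Cidea) were highest on the KO vehicle array, as were 25.1% of all genes but not Gpx3. For Plin1 and Cidea the WT STZ array was nearly as high (22.7 against 23.0, and 9.84 against 9.93). Fabp4 and Lpl had their arrays in the order of Gpx3, highest on WT STZ and lowest on KO STZ. The list median for KO against WT was 0.13 under vehicle and -0.48 under STZ, against -0.12 and -0.65 for Gpx3. All 7 were below 0 for STZ against vehicle in KO, with a median of -0.52. So were the 10 antioxidant genes and 57.0% of all genes.

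The 10 slow fibre markers had sums of 2030 and 2328 in WT and 1932 and 1607 in KO. Of the 10, 3 (Tnni1, Tnnc1 and Tpm3) had their arrays in the order of that sum. All 10 were below 0 for STZ in KO and for KO against WT under STZ, with medians of -0.21 and -0.49. Of all genes, 57.0% and 58.1% were below 0 there. For KO against WT under vehicle 4 were above 0 and 6 below, where 50.8% of all genes were below.

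For macrophages, all 12 markers lay above the filter, with sums of 372.1 and 467.1 in WT and 409.4 and 477.7 in KO. The markers went different ways, with 6 above and 6 below 0 for KO against WT under STZ and a median of 0.037. Of all genes, 58.1% were below 0. Among the markers Ctss stood at -0.60, Adgre1 at -0.40 and Cd68 at -0.23, on the side of Hmox1, while C1qa stood at 0.43, Cd163 at 0.41 and Mrc1 at 0.34.

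Of the 8 smooth muscle markers, Des is also a marker of muscle fibres. It stood at 2808 and 3025 in WT and at 2895 and 2711 in KO. The 8 had sums of 4453 and 4901 in WT and 4652 and 4367 in KO, made mostly by Des. Their medians for STZ against vehicle were 0.11 in WT and -0.16 in KO. For the difference between STZ effects 7 of 8 were below 0 (median -0.26), against 57.1% of all genes. The 10 endothelial markers had sums of 729.9 and 740.9 in WT and 889.6 and 812.7 in KO. Their medians for STZ against vehicle were 0.13 in WT and -0.24 in KO. For the difference between STZ effects 8 of 10 were below 0 (median -0.34), against the same 57.1% of all genes. The 9 fibroblast markers measured had sums of 3187 and 3446 in WT and 3783 and 3858 in KO, with a median difference between STZ effects of -0.073. The 12 markers of muscle fibres had medians for STZ against vehicle of -0.018 in WT and -0.012 in KO. Their median difference between STZ effects was 0.012, with 8 of 12 above 0, where 42.9% of all genes were. The part of these cell types in the values of the 10 genes and of Slc40a1 was not tested.

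The genes whose 4 array values were most like those of Nqo1, Gpx3 and Hmox1, the 3 of the 10 with the widest range, were also sought. Likeness was taken as the Euclidean distance between centred log2 values over 4 arrays, among 13258 genes. Nearest to Nqo1 were Aldh1a1, a cytosolic retinaldehyde dehydrogenase, at 0.064, Ginm1 at 0.070 and Snhg14 at 0.071. Aldh1a1 stood at 244.2 and 366.9 in WT and at 230.2 and 221.6 in KO, high on the same single array as Nqo1. Nearest to Gpx3 were Mospd2 at 0.023, Rpl34-ps2 at 0.033 and Zfp317 at 0.043, and nearest to Hmox1 were Catsperg2 at 0.016, Tbc1d20 at 0.025 and Snord72 at 0.045.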

How the data were processed

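Gastrocnemius RNA was hybridised to 4 arrays, 1 per group, after silica-column purification and labelling of 4 ug as biotinylated cRNA, per the labels' protocols. The deposited table holds a linear intensity for each of 41345 transcript clusters. For how the authors corrected background, summed probes and scaled arrays, nothing is given in the sources used here. Intensities were analysed as log2(intensity + 3.69), the offset being percentile 25 of all values. Array medians lay within 0.035, inside a limit of 0.1, so no scaling was added. On this scale the change of dim genes is understated. Gene symbols came from the platform annotation (23521 clusters with 1 symbol, 1814 with several, 16010 unlisted), and all 10 genes matched RefSeq by Entrez number. A gene was read by its brightest single-symbol cluster. The level filter kept genes whose mean log2 value exceeded the median over clusters (an intensity of 5.81). A gene counted as past the threshold at 1.5-fold.

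With 1 array per group there was no test, p-value or standard error, and the number of arrays limits the precision. The members and lists were chosen with earlier results of these data known. Named were all 10 genes, genes of the 8 pathway lists past 1.5-fold in a pairwise comparison (at most 4 per list and comparison), fixed reference genes, and the 3 genes closest in profile to each of the 3 members with the widest range. Single cell type markers came from 11 marker lists. The array order counts and the pattern of opposite signs were examined after the values were seen. The counting was tested on simulated data. Alternatives were quantile normalization, loess (span 0.3), median centring, offsets of 1 and 16, the mean of all clusters, other level filters and thresholds of 1.3-fold and 2-fold. Python 3.11.15, pandas 2.3.3, NumPy 2.4.6 and statsmodels 0.14.6 were used.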

Additional observations from a re-analysis of the deposited data

Results flagged for a closer look

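For 4 of the 10 genes a pair of effects pointed in opposite directions, each by at least 0.1 on the log2 scale. The share of all genes that met this rule was not counted. At any size, 28.6% of all genes were higher with STZ in WT and lower with STZ in KO. The differences between effects were not tested, since each group has 1 array. The effect of STZ was 0.41 in WT and -0.40 in KO for Hmox1, 0.20 and -0.30 for Gclm, and 0.35 and -0.19 for Gpx3. The effect of the knockout was 0.15 under vehicle and -0.39 under STZ for Nfe2l2, and 0.29 and -0.52 for Hmox1. Quantile normalization brought the value of Nfe2l2 under STZ to -0.24, and loess brought it to -0.25.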

How the results depend on the processing

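Values were called stable when they moved by less than 0.1 on the log2 scale, or by at most 1.5 times for a count, since no spread between replicates exists. Of 395 alternative values for single genes, 361 were stable, 34 moved and 0 turned sign by such an amount. The 361 include values that could not move. The mean of all clusters and the filters on level leave the value of a single gene unchanged here. Median centring shifts all genes alike, by at most 0.035. All 34 came from quantile normalization, loess or an offset of 1 or 16. Of 114 alternative summaries, 96 were stable and 18 moved. For KO against WT under STZ the median moved to -0.17 under quantile normalization and -0.14 under loess. The count past 1.5-fold in that comparison moved from 2 to 1 under quantile normalization and with an offset of 16. It was 3 with an offset of 1, where Hmox1 stood at -0.61 and 3.77% of all genes were that much lower. For the difference between STZ effects the median moved to -0.26 under quantile normalization, -0.27 under loess and -0.25 when the filter on level was raised to percentile 75, which left Hmox1 out and 9 genes in. The count in it moved from 2 to 1 under those settings and with an offset of 16. That count was 3 with an offset of 1, where Gpx3 stood at -0.59 and 5.64% of all genes were that much lower. With a threshold of 1.3-fold the counts were 2 for STZ in WT, 2 for STZ in KO, 5 for KO under STZ and 5 for the difference between STZ effects. Of all genes, 5.82% were that much higher for STZ in WT, and 4.74%, 9.7% and 12.5% that much lower in the other 3. With 2-fold the counts were 0 for STZ in WT, 0 for KO under STZ and 0 for that difference. Few genes of any kind passed 2-fold, with 0.098% of all genes higher for STZ in WT. For KO under STZ 0.287% were that much lower, and for the difference 0.249%. The mean of all clusters changed nothing for the 10 genes, because each has 1 cluster. No paired analysis was possible because each group has 1 array. Signal over background is unknown. Hmox1, the dimmest of the 10, had a difference between STZ effects from -0.95 with an offset of 1 to -0.48 with 16.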
